A study of Mus musculus with 20 samples.

Results

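The genes described here encode brakes on inflammatory signalling: the regnases Zc3h12a, Zc3h12c and Zc3h12d, the tristetraprolin family Zfp36, Zfp36l1 and Zfp36l2, A20 (Tnfaip3) with its binding partners Tnip1 and Tnip3, and the kinase-like protein IRAK-M (Irak3). These 10 genes, of 78409 in the count table, were chosen by name and known role at a time when their levels over the 5 treatment groups, and the fold changes between those groups, had already been seen in these same libraries. Their levels, fold changes and adjusted p-values are therefore a description and not independent evidence, and nothing is read from how many of them changed against the share of all genes that did.

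The study asked how airway fluid from inflamed lungs, with and without the Y RNA RNY1, acts on macrophages. Bone marrow-derived macrophages (BMDMs) from female C57BL/6J mice of wild-type genotype were treated on day 7 of culture, at 200000 cells per well, and their polyadenylated RNA was sequenced in 20 libraries, 4 per group. The fluid was bronchoalveolar lavage fluid (BALF) from mice with ovalbumin (OVA)-induced airway inflammation, separated into a fraction enriched in extracellular vesicles (EV_Fx_) and a protein-enriched fraction (Protein_Fx_). The RNY1 genotype is that of the fluid donors, not of the macrophages.

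The 5 groups were PBS and the 4 combinations of fraction and donor: RNY1+/+ or RNY1-/- EV_Fx_, and RNY1+/+ or RNY1-/- Protein_Fx_. EV_Fx_ was given at 35000000 particles per µL and Protein_Fx_ at 0.75 µg of protein per µL, so the fractions were matched between genotypes but not to each other. The fractions had been stored for 5 days. All library names share the same prefix, which nothing says stands for a batch. The labels do not give the length of treatment, and nothing says whether replicates were separate cultures or fluid pools, so every p-value measures only the spread between these libraries.

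As background, Toll-like and interleukin-1 receptors pass their signal through MyD88 and the IRAK kinases to ubiquitin chains that switch on NF-κB. A20 edits and binds those chains, the Tnip proteins bring it to them, and IRAK-M holds back the kinase step, while regnases cut stem-loops and tristetraprolin proteins bind AU-rich elements in inflammatory mRNAs and hasten their decay. Several of these brakes are themselves NF-κB target genes, which makes them a familiar part of the feedback in macrophages stimulated with microbial products.

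Total counts ran from 2510005 to 8277366 per library, with group medians of 5249692 for PBS, 7864328 (RNY1+/+) and 6329103 (RNY1-/-) for EV_Fx_, and 4601712 (RNY1+/+) and 4574310 (RNY1-/-) for Protein_Fx_. All 11 macrophage markers (among them Adgre1, Csf1r and C1qa) had a mean of at least 1 CPM (counts over the library total, scaled) in every group. Their summed level was 14120 CPM in PBS, 10120 and 9666 with EV_Fx_ and 11690 and 12520 with Protein_Fx_ (RNY1+/+ donors first), and Lyz2 was the most abundant in each. Lyz2 went from 8416 CPM in PBS to 4954 and 4578 CPM with EV_Fx_, much of the difference in the sum, while Adgre1 stood at 859.5 CPM in PBS and at 2765 and 3203 CPM. In the order PBS, EV_Fx_ and Protein_Fx_, again with RNY1+/+ donors first, the 12 neutrophil markers summed to 364.6, 197.7, 252.9, 326.6 and 373.6 CPM, with S100a8 the most abundant, and the 8 eosinophil markers to 11, 1.27, 1.82, 17.1 and 15 CPM, most of it Ccr3. Depending on the group, 6 or 7 of the 12 neutrophil markers had a mean of at least 1 CPM. The neutrophil genes Ly6g, Elane and Mpo had group means of at most 0.048, 0.23 and 0.25 CPM. The eosinophil genes Epx and Il5ra were at 0 CPM in every group. The 9 T cell markers summed to at most 6.25 CPM, the 7 B cell markers to at most 14.3 CPM. In whichever group was highest, the 7 fibroblast markers summed to 35 CPM (PBS), the 7 dendritic cell markers to 1.77 CPM (PBS), the 11 epithelial markers to 2.28 CPM (RNY1+/+ Protein_Fx_) and the 7 mast cell and basophil markers to 0.438 CPM (RNY1-/- EV_Fx_). The part of these marker differences in the results below was not tested. In bulk RNA, fewer cells that express a gene and less of its RNA per cell cannot be told apart.

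Some libraries stood apart from their group. By Euclidean distance over log2 CPM, PBS replicate 3 lay 62.9 to 81.5 from the other PBS libraries, which lay 35.2 to 48.0 from each other. The RNY1-/- Protein_Fx_ libraries fell into pairs: replicates 1 and 2 lay 35.4 apart and replicates 3 and 4 lay 53.7 apart, against 58.9 to 74.7 across the pairs. For several results below, values are also given without these libraries.

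A gene is called differentially expressed (a DEG) when its log2 fold change was beyond 1 in either direction and its adjusted p under 0.05, from edgeR's quasi-likelihood test over all genes tested in 4 against 4 libraries, with Benjamini-Hochberg adjustment. All 10 genes passed the filter on low counts in every comparison. Against PBS, 7 of the 10 were DEGs with RNY1+/+ EV_Fx_, 6 higher and 1 lower, where 8.24% of the 10797 genes tested were higher DEGs and 8.2% were lower DEGs. With RNY1-/- EV_Fx_, 5 rose and 2 fell, beside 9.01% and 13.5% of 10730 genes. RNY1+/+ Protein_Fx_ raised 6 and lowered 0, beside 8.96% and 12.4% of 10834 genes. For RNY1-/- Protein_Fx_ 3 rose and 0 fell, beside 6.31% and 7.99% of 10856 genes. Without PBS replicate 3, or without RNY1-/- Protein_Fx_ replicate 1 or 2, 5 of the 10 were DEGs in that comparison. Over the 10 genes, the median log2 fold changes were 1.80, 1.44, 1.55 and 0.76 in this order of comparisons, where the medians over all genes tested lay between -0.032 and -0.0283. These 4 comparisons share the same PBS libraries.

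**Figure D1:**
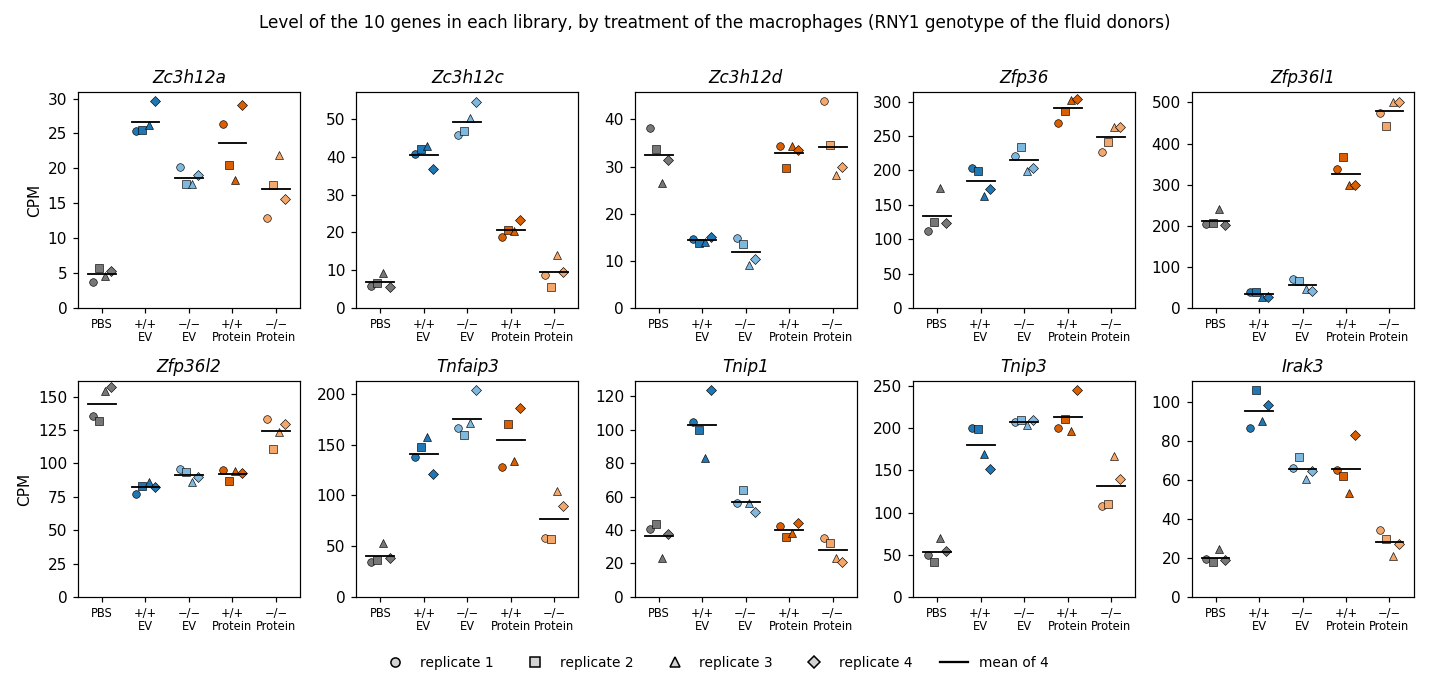
Level of each of the 10 genes (y axis, CPM, from 0) in each of the 20 libraries, grouped by treatment on the x axis, with marker shape for the replicate and a black line for the mean of 4. Zfp36l1 sits at 26.9 to 71.3 CPM in the EV_Fx_ groups and at 299 to 501 CPM in the Protein_Fx_ groups, around 201 to 240 CPM in PBS, while Zc3h12a is higher in every treated library than in any PBS library.

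Zc3h12a (ENSMUSG00000042677) encodes regnase-1, an endoribonuclease that cleaves stem-loops in cytokine mRNAs. It stood at 3.69, 5.79, 4.57 and 5.34 CPM in the PBS libraries, at 25.3, 25.5, 26.2 and 29.6 CPM with RNY1+/+ EV_Fx_ and at 20.2, 17.7, 17.7 and 19 CPM with RNY1-/- EV_Fx_. With Protein_Fx_ it stood at 26.4, 20.5, 18.3 and 29.1 CPM for RNY1+/+ and at 12.8, 17.6, 21.9 and 15.6 CPM for RNY1-/- donors. Every treated library was above every PBS library, while among the treated groups only RNY1+/+ EV_Fx_ lay apart from both RNY1-/- groups. The log2 fold change against PBS was 2.61 ± 0.16 (SE, n = 4 each; adjusted p = 2.5e-07) with RNY1+/+ EV_Fx_, 2.16 ± 0.17 (adjusted p = 1.5e-06) with RNY1-/- EV_Fx_, 2.44 ± 0.21 (adjusted p = 3.1e-06) with RNY1+/+ Protein_Fx_ and 1.84 ± 0.23 (adjusted p = 0.00019) with RNY1-/- Protein_Fx_. In order of mean level the groups ran PBS (4.85 CPM), RNY1-/- Protein_Fx_ (17), RNY1-/- EV_Fx_ (18.7), RNY1+/+ Protein_Fx_ (23.6) and RNY1+/+ EV_Fx_ (26.7), and of these neighbours only PBS lay apart from the next.

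Zc3h12c (ENSMUSG00000035164), for regnase-3, a related ribonuclease, spread the treated groups much more widely. Its PBS libraries held 5.94, 6.49, 9.15 and 5.52 CPM, those with RNY1+/+ EV_Fx_ 40.7, 42.0, 42.8 and 36.8 CPM and those with RNY1-/- EV_Fx_ 45.7, 46.8, 50.2 and 54.7 CPM. RNY1+/+ Protein_Fx_ gave 18.8, 20.5, 20.4 and 23.4 CPM, and RNY1-/- Protein_Fx_ 8.69, 5.59, 13.9 and 9.60 CPM. The order of the means was PBS (6.77 CPM), RNY1-/- Protein_Fx_ (9.46), RNY1+/+ Protein_Fx_ (20.8), RNY1+/+ EV_Fx_ (40.6) and RNY1-/- EV_Fx_ (49.3), and of these neighbours only PBS and RNY1-/- Protein_Fx_ overlapped. Zc3h12c rose by a log2 fold change of 2.77 ± 0.16 (adjusted p = 1.7e-07) with RNY1+/+ EV_Fx_, 3.12 ± 0.16 (adjusted p = 9.6e-08) with RNY1-/- EV_Fx_ and 1.80 ± 0.18 (adjusted p = 9.3e-06) with RNY1+/+ Protein_Fx_. With RNY1-/- Protein_Fx_ its value was 0.50 ± 0.29 (adjusted p = 0.19), from 0.28 to 0.74 with single libraries left out, 0.92 (adjusted p = 0.033) with only RNY1-/- Protein_Fx_ replicates 3 and 4, 0.10 (adjusted p = 0.84) with only replicates 1 and 2, and 0.09 (adjusted p = 0.76) with length and GC trends removed.

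Zc3h12d (ENSMUSG00000039981), for regnase-4, was the regnase that was lower with EV_Fx_. It held 38.2, 33.8, 26.5 and 31.3 CPM in PBS, 14.7, 13.9, 13.9 and 15 CPM with RNY1+/+ EV_Fx_ and 14.8, 13.6, 9.11 and 10.4 CPM with RNY1-/- EV_Fx_. The Protein_Fx_ libraries held 34.4, 29.7, 34.4 and 33.5 CPM (RNY1+/+) and 44.0, 34.7, 28.3 and 29.8 CPM (RNY1-/-). The EV_Fx_ groups thus overlapped each other and lay below all other libraries, and PBS and the Protein_Fx_ groups overlapped throughout, with means of 12, 14.4, 32.5, 33.0 and 34.2 CPM for RNY1-/- EV_Fx_, RNY1+/+ EV_Fx_, PBS, RNY1+/+ Protein_Fx_ and RNY1-/- Protein_Fx_. Against PBS, Zc3h12d fell by a log2 fold change of 1.18 with RNY1-/- EV_Fx_ (SE 0.17, adjusted p = 0.00018). With RNY1+/+ EV_Fx_ the value was -0.99 ± 0.13 (adjusted p = 1e-04), just inside the fold change limit, and it was -1.08 without PBS replicate 3 and -1.04 with the trends described below removed. With Protein_Fx_ its values were 0.19 ± 0.14 (adjusted p = 0.24) for RNY1+/+ and 0.14 ± 0.16 (adjusted p = 0.5) for RNY1-/- donors, the latter -0.03 with only RNY1-/- Protein_Fx_ replicates 3 and 4. Removing these trends, with transcript length and GC content, took the RNY1-/- EV_Fx_ value to -0.99 (adjusted p = 5.5e-05), inside the limit, and with the replicate block fitted as well it was -1.01 (adjusted p = 2.2e-05), past it. With the trends alone removed the Protein_Fx_ values were 0.34 (adjusted p = 0.014) and 0.28 (adjusted p = 0.079).

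Zfp36l1 (ENSMUSG00000021127), which encodes an AU-rich element binding protein of the tristetraprolin family, moved in opposite directions with the fractions. Its level was 204, 206, 240 and 201 CPM in PBS, 39.1, 39.7, 26.9 and 27.4 CPM with RNY1+/+ EV_Fx_ and 71.3, 65.1, 45.3 and 40.9 CPM with RNY1-/- EV_Fx_. It was 337, 366, 300 and 299 CPM with RNY1+/+ Protein_Fx_ and 474, 443, 500 and 501 CPM with RNY1-/- Protein_Fx_. No neighbouring groups overlapped: RNY1+/+ EV_Fx_ was lowest (mean 33.3 CPM), then RNY1-/- EV_Fx_ (55.6), PBS (213), RNY1+/+ Protein_Fx_ (326) and RNY1-/- Protein_Fx_ (479). Against PBS, Zfp36l1 fell with RNY1+/+ EV_Fx_ (log2 fold change -2.50 ± 0.15, adjusted p = 3e-07) and with RNY1-/- EV_Fx_ (-1.69 ± 0.16, adjusted p = 8e-06), and it rose with RNY1-/- Protein_Fx_ (1.24 ± 0.11, adjusted p = 2.1e-05). With RNY1+/+ Protein_Fx_ all 4 libraries were above PBS, at a value of 0.78 ± 0.11 (adjusted p = 0.00011) inside the fold change limit.

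Zfp36 (ENSMUSG00000044786) encodes tristetraprolin itself, whose best known target is the Tnf mRNA. Its level ranged over 112 to 174 CPM in PBS, 163 to 203 with RNY1+/+ EV_Fx_, 200 to 234 with RNY1-/- EV_Fx_, 227 to 263 with RNY1-/- Protein_Fx_ and 269 to 304 with RNY1+/+ Protein_Fx_. In this order each group overlapped the next except for the last pair, and the PBS library at 174 CPM was replicate 3, with the others at most at 125 CPM. Zfp36 rose with RNY1+/+ Protein_Fx_ (log2 fold change 1.29 ± 0.14, adjusted p = 1.6e-05). The other values were 0.65 ± 0.14 (adjusted p = 0.004), 0.93 ± 0.14 (adjusted p = 0.00019) and 0.97 ± 0.15 (adjusted p = 0.00084) for RNY1+/+ EV_Fx_, RNY1-/- EV_Fx_ and RNY1-/- Protein_Fx_, all inside the fold change limit. Without PBS replicate 3 the RNY1-/- EV_Fx_ and RNY1-/- Protein_Fx_ values stood at 1.09 and 1.11, past it, as the latter did at 1.03 and 1.01 without RNY1-/- Protein_Fx_ replicate 1 or 2 and at 1.11 with only its replicates 3 and 4. With length and GC trends removed the 2 values were 1.16 and 1.21, also past it, while the RNY1+/+ EV_Fx_ value was 0.50 (adjusted p = 0.063).

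Zfp36l2 (ENSMUSG00000045817), the remaining family member in this set, varied least. It ranged over 132 to 158 CPM in PBS, 77 to 86.1 with RNY1+/+ EV_Fx_, 86.0 to 96.1 with RNY1-/- EV_Fx_, 86.7 to 95.2 with RNY1+/+ Protein_Fx_ and 111 to 133 with RNY1-/- Protein_Fx_. By mean level RNY1+/+ EV_Fx_ (82.1 CPM), RNY1-/- EV_Fx_ (91.3) and RNY1+/+ Protein_Fx_ (92.2) each overlapped the next, and above them RNY1-/- Protein_Fx_ (124) overlapped PBS (145). Its log2 fold change against PBS was -0.64 ± 0.10 (adjusted p = 0.00037), -0.42 ± 0.10 (adjusted p = 0.0043), -0.48 ± 0.10 (adjusted p = 0.0025) and -0.15 ± 0.12 (adjusted p = 0.32), taking EV_Fx_ before Protein_Fx_ and RNY1+/+ before RNY1-/- donors, and none reached the fold change limit. With length and GC trends removed these were -0.75 (adjusted p = 0.0018), -0.14 (adjusted p = 0.46), -0.21 (adjusted p = 0.26) and 0.13 (adjusted p = 0.62), so that only the first still passed the adjusted p. The counts of Zfp36l2 were fractional in 18 libraries and those of Zfp36l1 in 11, because some of their reads also map elsewhere. This adds an uncertainty to their levels, and the share of such reads was not measured. Zc3h12c, Tnfaip3, Tnip1, Tnip3 and Irak3 had 0 fractional counts.

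Tnfaip3 (ENSMUSG00000019850) encodes A20, the ubiquitin-editing enzyme that ends NF-κB signalling. It stood at 34.4, 36.6, 53.5 and 38.1 CPM in PBS, at 138, 148, 158 and 121 CPM with RNY1+/+ EV_Fx_ and at 166, 160, 171 and 204 CPM with RNY1-/- EV_Fx_. With Protein_Fx_ it stood at 128, 170, 134 and 187 CPM for RNY1+/+ and at 58.0, 57.5, 104 and 89.7 CPM for RNY1-/- donors. All treated libraries were above all PBS libraries, and RNY1-/- Protein_Fx_ (mean 77.3 CPM) lay between PBS (40.7) and the other treated groups, which overlapped their neighbours at means of 141 (RNY1+/+ EV_Fx_), 155 (RNY1+/+ Protein_Fx_) and 175 CPM (RNY1-/- EV_Fx_). Tnfaip3 rose by a log2 fold change of 1.98 ± 0.15 (adjusted p = 1.7e-06), 2.36 ± 0.16 (adjusted p = 5.4e-07) and 2.11 ± 0.17 (adjusted p = 2e-06) with RNY1+/+ EV_Fx_, RNY1-/- EV_Fx_ and RNY1+/+ Protein_Fx_. With RNY1-/- Protein_Fx_ the value of 1.00 ± 0.24 (adjusted p = 0.0097) was just short of the limit, and it passed at 1.14 without PBS replicate 3 and, with 1.14 each, without RNY1-/- Protein_Fx_ replicate 1 or 2. With only its replicates 3 and 4 the value was 1.39 (adjusted p = 0.0012), and with only replicates 1 and 2 it was 0.54 (adjusted p = 0.093).

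Tnip1 (ENSMUSG00000020400), for the A20 partner ABIN-1, was highest with the vesicle fraction. Its levels were 40.4, 43.7, 23.6 and 37.4 CPM in PBS, 104, 99.8, 83.1 and 124 CPM with RNY1+/+ EV_Fx_ and 56.2, 63.9, 56.4 and 51.0 CPM with RNY1-/- EV_Fx_. With Protein_Fx_ they were 42.1, 36.0, 38.2 and 44.2 CPM (RNY1+/+) and 35.5, 32.3, 23.1 and 20.7 CPM (RNY1-/-). Both EV_Fx_ groups were above every other library and did not overlap each other, at means of 103 and 56.9 CPM, whereas PBS (36.3 CPM) overlapped RNY1-/- Protein_Fx_ (27.9) and RNY1+/+ Protein_Fx_ (40.1). Tnip1 rose with RNY1+/+ EV_Fx_ (log2 fold change 1.67 ± 0.18, adjusted p = 2.5e-05). The values for RNY1-/- EV_Fx_, RNY1+/+ Protein_Fx_ and RNY1-/- Protein_Fx_ were 0.88 ± 0.17 (adjusted p = 0.001), 0.31 ± 0.18 (adjusted p = 0.15) and -0.31 ± 0.22 (adjusted p = 0.27), and with the length and GC trends removed they were 1.39, 0.82 and 0.17.

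Tnip3 (ENSMUSG00000044162) encodes ABIN-3, another A20-binding protein. It held 49.6, 41.2, 70.0 and 54.1 CPM in PBS, 200, 199, 170 and 152 CPM with RNY1+/+ EV_Fx_ and 207, 209, 203 and 209 CPM with RNY1-/- EV_Fx_. The Protein_Fx_ libraries held 201, 210, 196 and 245 CPM (RNY1+/+) and 108, 110, 167 and 140 CPM (RNY1-/-). PBS (mean 53.7 CPM) lay below all treated libraries, RNY1-/- Protein_Fx_ (131) overlapped RNY1+/+ EV_Fx_ (180), which lay below RNY1-/- EV_Fx_ (207), and the latter overlapped RNY1+/+ Protein_Fx_ (213). Tnip3 rose in all 4 comparisons with PBS, by a log2 fold change of 1.93 ± 0.17 (adjusted p = 4e-06) with RNY1+/+ EV_Fx_, 2.19 ± 0.15 (adjusted p = 5.5e-07) with RNY1-/- EV_Fx_, 2.16 ± 0.16 (adjusted p = 8.5e-07) with RNY1+/+ Protein_Fx_ and 1.36 ± 0.21 (adjusted p = 0.00074) with RNY1-/- Protein_Fx_. The last of these calls was lost, at 0.88, when the length and GC trends were removed.

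Irak3 (ENSMUSG00000020227) encodes IRAK-M, which blocks the release of IRAK kinases from the receptor complex and is known for its part in endotoxin tolerance. Its PBS libraries held 19.5, 17.9, 24.5 and 18.9 CPM, those with RNY1+/+ EV_Fx_ 86.6, 106, 90.3 and 98.3 CPM and those with RNY1-/- EV_Fx_ 65.9, 71.5, 60.3 and 64.6 CPM. RNY1+/+ Protein_Fx_ gave 64.9, 62.1, 53.0 and 82.9 CPM and RNY1-/- Protein_Fx_ 34.2, 29.5, 21.1 and 27.0 CPM. RNY1-/- Protein_Fx_ (mean 27.9 CPM) thus overlapped PBS (20.2), RNY1-/- EV_Fx_ (65.6) overlapped RNY1+/+ Protein_Fx_ (65.7), and RNY1+/+ EV_Fx_ (95.3) lay above the rest. Irak3 rose by a log2 fold change of 2.42 ± 0.13 (adjusted p = 9.4e-08), 1.95 ± 0.12 (adjusted p = 3.2e-07) and 1.89 ± 0.17 (adjusted p = 3.5e-06) with RNY1+/+ EV_Fx_, RNY1-/- EV_Fx_ and RNY1+/+ Protein_Fx_, and its value with RNY1-/- Protein_Fx_ was 0.55 ± 0.16 (adjusted p = 0.023).

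Whether the donors' RNY1 mattered was asked within each fraction. Between RNY1-/- and RNY1+/+ EV_Fx_, 0 of the 10 genes were DEGs by edgeR and 0 by DESeq2, where 0.378% of 10322 genes were higher DEGs and 1.98% lower DEGs, although 9 had an unadjusted p under 0.05. The same 9 had an adjusted p under 0.05, 6 higher and 3 lower, where 52.1% of all genes tested did, 2634 higher and 2745 lower, at a median over the 10 genes of 0.25 beside -0.0012 over all genes. Zfp36l1 was higher with RNY1-/- EV_Fx_ in every library (log2 fold change 0.81 ± 0.17, adjusted p = 0.0021). Tnip1 was lower in every library (-0.79 ± 0.11, adjusted p = 0.00023), as were Irak3 (-0.47 ± 0.08, adjusted p = 0.00066) and Zc3h12a (-0.44 ± 0.10, adjusted p = 0.0027). Tnfaip3, Zc3h12c and Tnip3 were higher without overlap, at 0.39 ± 0.11 (adjusted p = 0.0085), 0.35 ± 0.09 (adjusted p = 0.0062) and 0.27 ± 0.09 (adjusted p = 0.021). Zfp36 and Zfp36l2 stood at 0.29 and 0.23 with groups that overlapped, and Zc3h12d at -0.17 ± 0.14 (adjusted p = 0.33).

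In the same comparison fold changes and transcript GC content were related (Spearman's rho -0.655 over 10020 genes, which do not count as replicates). Zc3h12a and Tnip1, both lower, have GC contents of 57.1% and 57.8%, and Zc3h12c and Tnip3, both higher, of 41.4% and 36.7%, where the median gene has 48.7%. Zfp36 (54.1%) and Zfp36l2 (54.8%) are also above the median but were higher, and Zc3h12d, Irak3, Zfp36l1 and Tnfaip3 have 52.1%, 49.7%, 49% and 47.1%. With the trends in length and GC content removed from each library, Zc3h12a moved from -0.44 to 0.06, Zc3h12c from 0.35 to -0.02 and Tnip3 from 0.27 to -0.18, none of them past the test (adjusted p = 0.67, 0.87 and 0.093). Tnfaip3 moved from 0.39 to 0.25 and no longer passed either (adjusted p = 0.063), and Zc3h12d stood at 0.05 (adjusted p = 0.81). Tnip1 moved to -0.27 (adjusted p = 0.011) and Irak3 to -0.36 (adjusted p = 0.0028). Zfp36l1 stood at 0.88 (adjusted p = 0.0014), Zfp36 at 0.65 and Zfp36l2 at 0.61 (adjusted p = 0.00027 each). The part of GC content in the differences without this step was not tested further.

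Between RNY1-/- and RNY1+/+ Protein_Fx_, 3 of the 10 genes were lower DEGs and 0 were higher, beside 1.17% and 0.659% of 10472 genes, with a median of -0.60 over the 10 genes and 0.019 over all genes. Zc3h12c fell from a mean of 20.8 to 9.46 CPM (log2 fold change -1.32 ± 0.23, adjusted p = 0.0049). Irak3 fell from 65.7 to 27.9 CPM (-1.31 ± 0.16, adjusted p = 0.00056). Tnfaip3 fell from 155 to 77.3 CPM (-1.10 ± 0.21, adjusted p = 0.0085). In each of these all 4 RNY1-/- libraries were below all 4 RNY1+/+ libraries. Tnip3 (-0.79 ± 0.16, adjusted p = 0.012) and Tnip1 (-0.60 ± 0.16, adjusted p = 0.042) were lower and Zfp36l1 (0.48 ± 0.11, adjusted p = 0.022) was higher, also without overlap but inside the fold change limit. Zfp36, Zfp36l2 and Zc3h12a had values of -0.31 (adjusted p = 0.13), 0.34 (adjusted p = 0.079) and -0.61 (adjusted p = 0.11), and Zc3h12d of -0.03 (adjusted p = 0.95).

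The size of these falls depended on which RNY1-/- Protein_Fx_ libraries were used. With only replicates 3 and 4 in that group, Zc3h12c stood at -0.90 (adjusted p = 0.014) and Tnfaip3 at -0.72 (adjusted p = 0.015), both no longer DEGs, and Irak3 alone remained one. With only replicates 1 and 2, all 3 were DEGs and so was Tnip3 at -1.11 (adjusted p = 6e-05). Tnfaip3 also lost its call, at -0.98, -0.97 and -0.96, without RNY1+/+ replicate 4 or RNY1-/- replicate 1 or 2. Irak3 ranged from -1.41 to -1.16 and Zc3h12c from -1.53 to -1.07 as single libraries were left out.

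The genotype effect differed between the fractions for 5 of the 10 genes by an interaction test over 16 libraries, in which 33% of 10443 genes had an adjusted p under 0.05. As the effect in Protein_Fx_ less that in EV_Fx_ (log2), it was -1.70 ± 0.24 for Zc3h12c (adjusted p = 7e-04), -1.5 ± 0.26 for Tnfaip3 (adjusted p = 0.0019), -1.07 ± 0.19 for Tnip3 (adjusted p = 0.0026), -0.84 ± 0.18 for Irak3 (adjusted p = 0.0049) and -0.60 ± 0.13 for Zfp36 (adjusted p = 0.0056). Zc3h12c, Tnfaip3 and Tnip3 were lower with RNY1-/- Protein_Fx_ and higher with RNY1-/- EV_Fx_, whereas Irak3 was lower in both and more so in Protein_Fx_. The difference did not pass for Zc3h12a (-0.18, adjusted p = 0.54), Zc3h12d (0.14, adjusted p = 0.58), Zfp36l1 (-0.34, adjusted p = 0.23), Zfp36l2 (0.11, adjusted p = 0.46) or Tnip1 (0.19, adjusted p = 0.44). With the length and GC trends removed the 5 values were -1.25, -1.36, -0.59, -0.96 and -0.94 in the order given first, and Tnip1 turned to -0.37 (adjusted p = 0.04). Zc3h12a moved to -0.73 (adjusted p = 0.057), and Zc3h12d and Zfp36l2 changed sign without passing (-0.09 and -0.26). After that step the EV_Fx_ effects of Zc3h12c, Tnip3 and Tnfaip3 were -0.02, -0.18 and 0.25, none past the test, so opposite directions in the fractions were not seen for Zc3h12c and Tnip3.

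**Figure D2:**
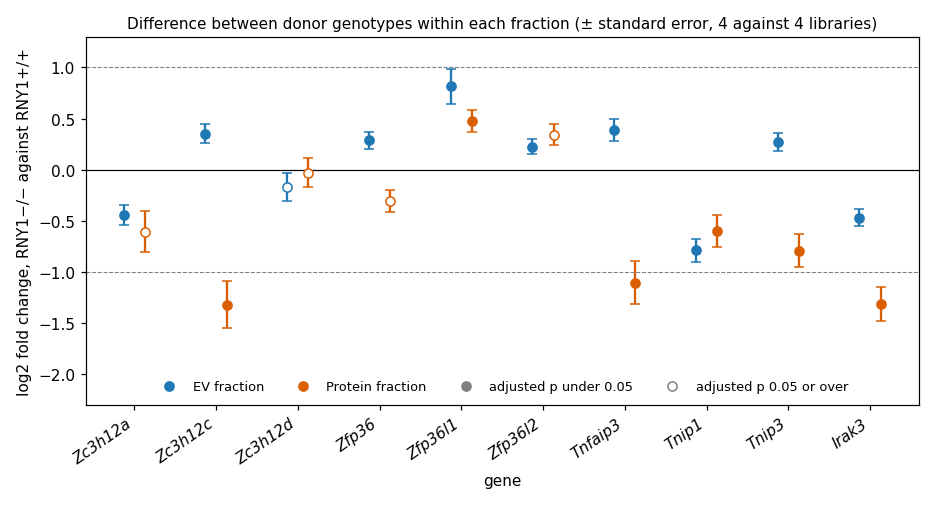
Difference between RNY1-/- and RNY1+/+ donors for each gene (y axis, log2 fold change; bars, standard error; 4 against 4 libraries) within EV_Fx_ (blue) and Protein_Fx_ (orange), filled where the adjusted p was under 0.05, with dashed lines at the fold change limit. Zc3h12c stands at 0.35 in EV_Fx_ and -1.32 in Protein_Fx_, and Tnfaip3 at 0.39 and -1.10.

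The fractions were also compared directly, although the doses were set in different units, so that a difference in dose and one in content cannot be told apart. For RNY1+/+ donors, 3 of the 10 genes were DEGs between Protein_Fx_ and EV_Fx_, 2 higher and 1 lower, beside 6.71% and 6.82% of 10443 genes. Zfp36l1 was 9.72-fold higher with Protein_Fx_ (log2 fold change 3.28 ± 0.13, adjusted p = 6.8e-11) and Zc3h12d 2.29-fold higher (1.2 ± 0.10, adjusted p = 1.6e-07). Tnip1 was lower (-1.35 ± 0.12, adjusted p = 2.2e-07), a call that was lost at -0.81 with the length and GC trends removed. Zc3h12c stood at -0.96 ± 0.10 (adjusted p = 2.1e-06), inside the fold change limit, and passed it at -1.01 without RNY1+/+ EV_Fx_ replicate 4 and at -1.04 without RNY1+/+ Protein_Fx_ replicate 4. Zfp36 and Irak3 stood at 0.65 (adjusted p = 2e-05) and -0.53 (adjusted p = 0.0017), and Zfp36l2 at 0.17 (adjusted p = 0.069), or 0.55 (adjusted p = 3.8e-05) with the length and GC trends removed. Zc3h12a, Tnfaip3 and Tnip3 had values of -0.15 (adjusted p = 0.33), 0.14 (adjusted p = 0.34) and 0.25 (adjusted p = 0.056), which turned to 0.37 (adjusted p = 0.031), -0.05 (adjusted p = 0.72) and -0.32 (adjusted p = 0.006) after the same step. It took Zc3h12c to -1.39 and Zfp36 to 1.02, both past the limit, in a comparison whose fold changes followed GC content with a rho of -0.493.

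For RNY1-/- donors, 6 of the 10 genes were DEGs between the fractions, 2 higher and 4 lower with Protein_Fx_, beside 4.98% and 4.06% of 10421 genes. Zfp36l1 (2.95 ± 0.17, adjusted p = 9e-08) and Zc3h12d (1.34 ± 0.17, adjusted p = 7.5e-05) were again higher. Zc3h12c was lower by a log2 fold change of -2.65 ± 0.21 (adjusted p = 1.8e-06), with 5.59 to 13.9 CPM in Protein_Fx_ and 45.7 to 54.7 CPM in EV_Fx_. Irak3 (-1.38 ± 0.12, adjusted p = 4.3e-06), Tnfaip3 (-1.36 ± 0.20, adjusted p = 0.00029) and Tnip1 (-1.17 ± 0.14, adjusted p = 5.6e-05) were lower as well. The Tnip1 call was lost at -0.997 with total counts in place of TMM. Tnip3 stood at -0.82 ± 0.15 (adjusted p = 0.0012), inside the fold change limit, and Zc3h12a, Zfp36 and Zfp36l2 at -0.33 (adjusted p = 0.16), 0.05 (adjusted p = 0.75) and 0.28 (adjusted p = 0.055). With only replicates 3 and 4 of RNY1-/- Protein_Fx_, Tnfaip3 stood at -0.97, and with only replicates 1 and 2, Tnip1 stood at -0.96, both past the adjusted p but inside the fold change limit. With replicates 1 and 2 only, Tnip3 became a DEG at -1.14 (adjusted p = 1.2e-06) and Zfp36 stood at -0.08 (adjusted p = 0.49).

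Some other genes had nearly the same profile over the 5 groups, measured as the root mean square difference in centred log2 group means (prior count of 2) over 7550 genes with a mean of at least 10 CPM. The nearest to Zc3h12c was Osbpl3, at 0.114, followed by Tspan3 (0.264) and Malt1 (0.284). The nearest to Zfp36l1 was Pdgfc (0.0778), to Tnfaip3 Hsd17b7 (0.119), to Tnip1 Cd14 (0.0893) and Rac2 (0.0899), to Tnip3 Serp1 (0.0901) and to Irak3 Pilra (0.137). Zc3h12a was nearest to Cxcl16 (0.141) and Zc3h12d to Mcm4 (0.112). The median distance to all candidates was 1.48 for Zfp36l1, 1.21 for Zc3h12c and 0.889 for Tnfaip3. Zfp36 and Zfp36l2 were nearest to Tmco3 (0.0419) and Stard9 (0.0325), with median distances of 0.499 and 0.369. From the lowest to the highest group the profiles spanned 3.74 (Zfp36l1), 3.06 (Zc3h12c), 1.29 (Zfp36) and 0.63 (Zfp36l2) on the log2 scale, where the median over 12591 genes was 0.837.

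The machinery around the 10 genes was read from lists of related genes. For comparison, the shares of all genes tested against PBS were 8.24% higher and 8.2% lower DEGs with RNY1+/+ EV_Fx_, and 8.96% and 12.4% with RNY1+/+ Protein_Fx_. Of the 28 genes of deadenylation and decapping, which remove the tail and cap of an mRNA that Zfp36 proteins have bound, 0 were DEGs with RNY1+/+ EV_Fx_ against PBS by edgeR or by DESeq2 (median log2 fold change 0.0019), while 13 had an unadjusted p under 0.05 (51.7% of all genes) and, of these, 5 were higher and 3 lower at an adjusted p under 0.05. With RNY1+/+ Protein_Fx_ 1 was a DEG (median 0.11). That gene was Dcp2, the decapping enzyme, at 33.1 CPM in PBS and 62.5 CPM with RNY1+/+ Protein_Fx_ (1.08 ± 0.12, adjusted p = 2.2e-05), a call lost at 0.65 with the length and GC trends removed. Among other RNA-binding regulators of inflammatory transcripts, 2 of 18 rose with RNY1+/+ EV_Fx_ and 4 of 19 with RNY1+/+ Protein_Fx_, and none fell in either, beside 8.24% and 8.96% of all genes that rose. In each, 1 of the risen genes was under 3 CPM in PBS and was tested because of its treated level, and without it 1 and 3 rose. N4bp1, a ribonuclease related to the regnases, went from 47.4 CPM in PBS to 92.8 CPM with RNY1+/+ EV_Fx_ (1.15 ± 0.13, adjusted p = 2.8e-05, or 0.97 and no longer a DEG with total counts in place of TMM) and to 225 CPM with RNY1+/+ Protein_Fx_ (2.42 ± 0.12, adjusted p = 2.4e-08). Samhd1 and Mex3c also rose with RNY1+/+ Protein_Fx_, to 700 CPM from 270 and to 141 CPM from 66.5. Samhd1 was on the list although it is not an established regulator of inflammatory mRNA decay. Between genotypes, 0 genes of either list were DEGs by edgeR or DESeq2, with 16 (deadenylation and decapping) and 11 (other regulators) at an unadjusted p under 0.05 in EV_Fx_ and 4 and 5 in Protein_Fx_, beside 58.4% and 19.3% of all genes tested.

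Of the kinases, phosphatases and 14-3-3 proteins that control tristetraprolin, 1 of 15 rose with RNY1+/+ EV_Fx_ (8.24% of all genes) and 1 of 15 fell with RNY1+/+ Protein_Fx_ (12.4%), with medians of 0.28 and -0.11. Mapkapk2, whose kinase phosphorylates tristetraprolin and so slows the decay of its targets, rose with RNY1+/+ EV_Fx_ from 36.4 to 88.2 CPM (1.45 ± 0.22, adjusted p = 0.00032). Map2k3, upstream of p38, fell with RNY1+/+ Protein_Fx_ from 64.7 to 27.1 CPM (-1.09 ± 0.15, adjusted p = 0.00015), and stood at -0.75 with the length and GC trends removed.

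Among 30 partners of A20 and enzymes of ubiquitin editing, 5 rose with RNY1+/+ EV_Fx_ (median 0.28) and 3 with RNY1+/+ Protein_Fx_ (median 0.19), and 0 fell in either. Of all genes tested, 8.24% and 8.96% rose and 8.2% and 12.4% fell, so the count of rises with Protein_Fx_ was near the share over all genes. The ubiquitin ligase gene Birc3 went from 32.2 CPM in PBS to 199 CPM with RNY1+/+ EV_Fx_ (2.81 ± 0.11, adjusted p = 1.4e-08) and to 124 CPM with RNY1+/+ Protein_Fx_ (2.11 ± 0.13, adjusted p = 1.5e-07). Malt1, for a protease that cleaves A20 and regnase-1, went from 21.4 CPM to 169 CPM (3.17 ± 0.28, adjusted p = 4.9e-06) and 50.7 CPM (1.44 ± 0.33, adjusted p = 0.0033). Sqstm1 rose with RNY1+/+ EV_Fx_ from 178 to 1178 CPM (2.90 ± 0.19, adjusted p = 4.7e-07).

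A further list holds genes of Toll-like and interleukin-1 receptor signalling, not all of which encode steps that IRAK-M holds back. Of these, 2 of 17 rose and 1 fell with RNY1+/+ EV_Fx_ (8.24% and 8.2% of all genes), and 2 of 16 rose and 0 fell with RNY1+/+ Protein_Fx_ (8.96% and 12.4%). The kinase gene Irak2 rose with RNY1+/+ EV_Fx_ from 33.8 to 77.3 CPM (1.36 ± 0.12, adjusted p = 5.1e-06). Peli1, for a ligase that acts on IRAK proteins, rose with RNY1+/+ Protein_Fx_ from 145 to 442 CPM (1.78 ± 0.18, adjusted p = 1.1e-05), while its relative Peli2 fell with RNY1+/+ EV_Fx_ from 17.3 to 3.42 CPM (-2.16 ± 0.19, adjusted p = 4e-06). Between genotypes, the adaptor gene Ticam1 was lower with RNY1-/- EV_Fx_ (8.05 against 17.1 CPM, -1.03 ± 0.17, adjusted p = 0.00057), a call lost at -0.56 with the length and GC trends removed and without any of 3 libraries, at -0.93 without RNY1+/+ EV_Fx_ replicate 4, -0.90 without RNY1-/- EV_Fx_ replicate 2 and -0.97 without its replicate 4. Peli2 was higher with RNY1-/- than with RNY1+/+ Protein_Fx_ (18.9 against 8.41 CPM, 1.1 ± 0.18, adjusted p = 0.004), and stood at 0.93 without RNY1+/+ Protein_Fx_ replicate 4.

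The next list holds inhibitors of NF-κB and other feedback genes that act beside the 10 genes. With RNY1+/+ EV_Fx_, 10 of 17 rose and 2 fell (median 1.91), beside 8.24% and 8.2% of all genes. With RNY1+/+ Protein_Fx_ 10 of 18 rose and 3 fell (median 1.36), beside 8.96% and 12.4%. Of the 22 listed genes, those low in both groups were not tested, and 2 and 3 of those tested, all risen, were under 3 CPM in PBS and passed the filter by their treated level. Without these, 8 rose and 2 fell (median 1.68) and 7 rose and 3 fell (median 0.45), so the shares and medians depend on the filter. Nfkbia, for IκBα, went from 138 to 1141 CPM with RNY1+/+ EV_Fx_ (3.23 ± 0.10, adjusted p = 3.4e-09), and Nfkbiz, whose mRNA regnase-1 is known to cleave, from 6.50 to 118 CPM (4.38 ± 0.21, adjusted p = 4.5e-08). Il1rn, the interleukin-1 receptor antagonist, went from 45.6 to 526 CPM with RNY1+/+ Protein_Fx_ (3.70 ± 0.22, adjusted p = 1.4e-07). Nlrc3, an inhibitor of TRAF6 signalling, fell with both fractions, to 5.02 and 7.70 CPM from 20.9, though the Protein_Fx_ value stood at -0.98 with the length and GC trends removed. Between genotypes, 0 rose and 1 of 17 fell in EV_Fx_ (median -0.27), and 0 rose and 3 of 17 fell in Protein_Fx_ (median -0.39), where 1.98% and 1.17% of all genes tested fell. The latter count was 4 with only RNY1-/- Protein_Fx_ replicates 3 and 4, and 5 with length and GC trends removed, a step that left 0 fallen in EV_Fx_. Il1rn fell from 526 to 194 CPM in Protein_Fx_ (-1.53 ± 0.18, adjusted p = 0.00035), as did Socs3 from 50.3 to 18.3 CPM (-1.55 ± 0.23, adjusted p = 0.0017), and in EV_Fx_ Socs3 went from 31.5 to 14.2 CPM (-1.07 ± 0.12, adjusted p = 2e-04), at -0.52 with the length and GC trends removed and -0.99 without RNY1-/- EV_Fx_ replicate 3.

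Of 40 inflammatory transcripts known as targets of these decay factors, 28 were tested with RNY1+/+ EV_Fx_ against PBS, where 18 rose and 3 fell (median 2.37, beside 8.24% and 8.2% of all genes), and 26 with RNY1+/+ Protein_Fx_, where 16 rose and 1 fell (median 1.23, beside 8.96% and 12.4%). Again 6 and 4 of these, all risen, were under 3 CPM in PBS and were tested because of their treated level, which tilts the counts towards rises. Without them 12 rose and 3 fell (median 1.24) and 12 rose and 1 fell (median 1.04). Cxcl2 went from 4.82 CPM in PBS to 517 CPM with RNY1+/+ EV_Fx_, Ccl2 from 91.5 to 2787 CPM with RNY1+/+ Protein_Fx_, and Il1b from 0.478 to 39.6 CPM, the PBS level resting on few counts. Fos and Tfrc fell with RNY1+/+ EV_Fx_, from 150 to 33.6 CPM (-1.98 ± 0.21, adjusted p = 2.2e-05) and from 245 to 79.8 CPM (-1.44 ± 0.11, adjusted p = 1.3e-06). Between genotypes, 5 of 28 fell and 0 rose in EV_Fx_ (median -0.24), and 11 of 24 fell and 0 rose in Protein_Fx_ (median -0.87), where 1.98% and 1.17% of all genes tested fell. With length and GC trends removed 2 and 11 fell, and in Protein_Fx_ 9 fell with only RNY1-/- replicates 3 and 4 and 12 with only replicates 1 and 2. Tnf, the best known target of tristetraprolin, was at 159 CPM with RNY1+/+ and 65.3 CPM with RNY1-/- EV_Fx_ (-1.22 ± 0.13, adjusted p = 2e-04), at -0.96 with the length and GC trends removed. Il1b was at 39.6 and 6.11 CPM with RNY1+/+ and RNY1-/- Protein_Fx_ (-2.74 ± 0.47, adjusted p = 0.0048), where the RNY1+/+ libraries spread widely (SD 31.9 CPM), and the value ran from -2.99 to -1.95 with single libraries left out. The medians over all genes tested are those near 0 given above, and no list was tested as a set.

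What the 10 genes share beyond their counts was looked for in their promoters and 3′ UTRs. RefSeq promoters (GRCm38.p6) were matched for 9 of the 10 genes, that of Zfp36l2 being missing, and the 250 bases before each RefSeq start were searched on both strands, in each of 2 promoters for Zc3h12c, Tnfaip3 and Irak3. Matches to the NF-κB consensus, searched by name, lay in the promoters of Tnfaip3 (2 matches in 1 promoter and 0 in its other), Tnip1 (3 overlapping matches) and Tnip3 (1 match), where 3.9% of 32851 promoters hold a match. Those of Zc3h12a, Zc3h12c, Zc3h12d, Zfp36, Zfp36l1 and Irak3 held 0, which says only that these letters are not in this window. These starts are not always the outermost: the Tnfaip3 stretch shown lies inside the annotated gene, near its 5′ end, and that of Tnip3 well inside the extent annotated for it (chr6:65525313-65634040), outside exons in both cases. The matched stretches are shown because A20 and its partners are textbook NF-κB targets, 5′ to 3′ on the minus strand at chr10:19015411-19015547 (Tnfaip3) and chr11:54962975-54963010 (Tnip1) and on the plus strand at chr6:65590332-65590365 (Tnip3), with the matches in capitals, and a match is a description of letters, not a bound site.
Tnfaip3: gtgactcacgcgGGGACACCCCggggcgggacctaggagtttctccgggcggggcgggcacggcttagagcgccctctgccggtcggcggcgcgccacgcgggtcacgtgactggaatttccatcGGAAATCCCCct
Tnip1: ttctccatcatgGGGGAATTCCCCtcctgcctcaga
Tnip3: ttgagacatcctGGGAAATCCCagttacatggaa

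Of the other motifs, AP-1 (TGANTCA, in 6.75% of promoters) was found 1 time each before Tnfaip3 and Zfp36l1, in Tnfaip3 overlapping none of the NF-κB matches. The GAS element bound by STAT factors (TTCNNNGAA, in 7.02% of promoters) was found 1 time each before Zfp36 and Tnip1, and the cAMP response element (TGACGTCA, in 1.55%) was found before none of the 9.

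The AU-rich nonamer TTATTTATT, the site that tristetraprolin proteins bind, was searched on the sense strand of the longest annotated 3′ UTR (GENCODE, GRCm38). It occurred 1 time each in Zfp36, Zfp36l1 and Zfp36l2. The search is not given for all of the 10 genes, so nothing is read from which of them carry the site. Among 3′ UTRs of like length, 4.38%, 9.93% and 9.68% hold the nonamer for these 3 genes, and over 20996 protein-coding genes 7.59% do. Of the 40 target transcripts, 13 hold it (32.5%). The site is not particular to any gene family, as the share over all genes shows. The 3 are shown because tristetraprolin proteins read this element, all on minus strands, at chr7:28376950-28376979 (Zfp36), chr12:80108166-80108195 (Zfp36l1) and chr17:84184913-84184942 (Zfp36l2), with the nonamer in capitals.
Zfp36: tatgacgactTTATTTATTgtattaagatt
Zfp36l1: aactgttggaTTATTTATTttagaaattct
Zfp36l2: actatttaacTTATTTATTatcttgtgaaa

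These 3 genes did not share a profile: Zfp36l1 fell with EV_Fx_, and the means of Zfp36 were above and those of Zfp36l2 below PBS in every treated group. By position the 10 genes lie on chromosomes 4, 6, 7, 9, 10, 11, 12 and 17, and although Zc3h12d (chr10:7832470-7870396), Tnfaip3 (chr10:19000910-19015657) and Irak3 (chr10:120141648-120202130) are on the same chromosome, they are megabases apart in GRCm38.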

How the data were processed

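The authors trimmed reads with fastp 0.24.0, aligned them with STAR 2.7.11 to GRCm39, removed duplicates by unique molecular identifier and counted the rest per gene with featureCounts of Subread 2.1.1. The deposited expected counts are not normalised, with multi-mapping reads shared out as fractions, and the deposited CPM are counts over a library's total, as checked on the values. Members and lists were chosen with earlier results of these data known. Counts were rounded, filtered (filterByExpr, then a mean CPM of 3 or more in the libraries compared), scaled by TMM and tested across all genes with edgeR 4.0.16 (quasi-likelihood, Benjamini-Hochberg) in R 4.3.3, each comparison on its own 8 libraries and the interaction on 16. Each standard error is the log2 fold change divided by the root of its F statistic. The tests were tried on simulated data, with an outcome that is not given here.

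From each list, the DEGs at a mean CPM of 10 or more were eligible for naming: the 3 largest rises and 3 largest falls for RNY1+/+ EV_Fx_ and RNY1+/+ Protein_Fx_ against PBS, and the 2 largest of each between genotypes. All 10 genes are named in each comparison, and each gene's nearest profiles were ranked by distance.

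Nothing in the labels pairs replicates of the same number. The correlations of their residuals met the limit of above 0.1 for every pair in RNY1-/- EV_Fx_ against PBS (0.155, 0.282, 0.26 and 0.118) and RNY1-/- Protein_Fx_ against EV_Fx_ (0.23, 0.328, 0.293 and 0.2), and fitting replicate number as a block changed no member's call in either.

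Alternatives were DESeq2 1.42.0, total counts, other filters, no fold change limit, all 20 libraries in 1 fit, a replicate block, removal of length and GC trends (splines of 4 degrees of freedom per library, GENCODE for GRCm38), single libraries left out and pairs of RNY1-/- Protein_Fx_ libraries. Promoters came from RefSeq (GRCm38.p6) and 3′ UTRs from GENCODE, and the 3′ UTR search of Tnfaip3 is not reported here. The study's experiments other than this sequencing were not analysed here.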

Additional observations from a re-analysis of the deposited data

Results flagged for a closer look

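In Zfp36l1, 1 library lay far from the rest of its group: PBS replicate 3 stood at 240 CPM and the nearest PBS library at 206 CPM, a gap of 0.887 of the group's range. It was the only such library among 50 groups of 4 (10 genes in 5 treatments), where chance gives about 1 in 20, or 2.5. With PBS replicate 3 left out, Zfp36l1 fell or rose against PBS in the same directions.

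For 5 genes the effect of donor genotype differed between the fractions by an interaction test, which 33% of 10443 genes passed, with the effect in Protein_Fx_ less that in EV_Fx_ at -1.70 for Zc3h12c, -0.60 for Zfp36, -1.5 for Tnfaip3, -1.07 for Tnip3 and -0.84 for Irak3 (log2). No cause was tested.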

How the results depend on the processing

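Of 1510 fold changes of the 10 genes under all alternatives, 1451 kept their direction and stayed DEG or not DEG (the adjusted p alone crossed 0.05 in some of these), 11 lost a call, 30 gained one, 17 without a call changed sign, and 1 turned: Tnip1's difference between genotype effects went from 0.19 to -0.37 (adjusted p = 0.04) with length and GC trends removed. The cause was not tested. Of 685 values of the other named genes, 24 lost a call, and of 1792 counts of called genes in the lists 154 changed by more than 1.5 times or to or from 0.

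The number of the 10 genes called changed by more than 1.5 times only with adjusted p only, with RNY1-/- Protein_Fx_ replicates 3 and 4 and with single libraries left out for RNY1-/- Protein_Fx_ against PBS. With adjusted p only it was 10 instead of 7 for each EV_Fx_ group against PBS, 8 instead of 6 for RNY1+/+ Protein_Fx_ against PBS, 7 instead of 6 between fractions for RNY1-/- donors, 6 instead of 3 for RNY1-/- Protein_Fx_ against PBS, 9 instead of 0 between genotypes in EV_Fx_, 6 instead of 3 between genotypes in Protein_Fx_ and 6 instead of 3 between fractions for RNY1+/+ donors. With only RNY1-/- Protein_Fx_ replicates 3 and 4 it was 5 against PBS, 1 between genotypes and 5 between fractions, and with only replicates 1 and 2 it was 4 between genotypes. DESeq2 gave 4 for RNY1-/- Protein_Fx_ against PBS, and other alternatives moved a count by at most 1 but for the joint removal below. By adjusted p alone, 44.5%, 58.3%, 55.2% and 35.7% of all genes passed against PBS (RNY1+/+ and RNY1-/- EV_Fx_, then Protein_Fx_), 52.1% and 5.57% between genotypes (EV_Fx_, Protein_Fx_) and 63.3% and 29.2% between fractions (RNY1+/+, RNY1-/-). With single libraries left out the number of the 10 genes called ranged from 7 to 8 for each EV_Fx_ group against PBS, 6 to 6 and 3 to 5 for RNY1+/+ and RNY1-/- Protein_Fx_ against PBS, 0 to 0 and 2 to 3 between genotypes in EV_Fx_ and Protein_Fx_, 3 to 4 and 6 to 6 between fractions for RNY1+/+ and RNY1-/- donors and 5 to 5 for the interaction. The count of 5 came without PBS replicate 3, RNY1-/- Protein_Fx_ replicate 1 or replicate 2.

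With the replicate block, 7 genes were called for RNY1-/- EV_Fx_ against PBS and 6 between fractions for RNY1-/- donors, as without it. Joined with removal of length and GC trends, the block gave 9 and 6, against 8 and 6 with that removal alone. In the other comparisons the pairing check was not met, and the block changed no call of the 10 genes. For RNY1-/- Protein_Fx_ against PBS the correlations were 0.425, 0.513, 0.574 and 0.00897, the last below the limit. There the block took the number of all genes with an adjusted p under 0.05 from 3878 to 6615, of 10856 tested.

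Total counts in place of TMM moved the median over all genes to -0.212, -0.274 and -0.199 against PBS for RNY1+/+ EV_Fx_, RNY1-/- EV_Fx_ and RNY1+/+ Protein_Fx_. It took Zc3h12d with RNY1+/+ EV_Fx_ to -1.17, past the limit, and Tnip1 between fractions for RNY1-/- donors to -0.997, inside it. The 4 libraries per group limit how small a difference could be called, and Zc3h12a, at 18 to 37.5 counts per PBS library, has the widest counting error here.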
